A study of Homo sapiens with 6 samples.

Results

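The genes that make cholesterol and fatty acids, with the regulators of their transcription, were followed in Caki2 cells with and without PBRM1. They were 37 genes of the 25369 measured, chosen by symbol from the known pathways: 7 mevalonate genes, 10 genes from squalene to cholesterol, 14 fatty acid genes and 6 genes of the SREBP system. All 37 were found, SC5D under its current symbol, and all 37 passed the filter on low values (10 or more normalized counts in 3 or more of the 6 samples), as did 13303 genes in all.

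Caki2 is a line from a human clear cell renal cell carcinoma that lacks PBRM1 protein, a subunit of the PBAF chromatin remodelling complex. RNA-Seq was performed on 3 replicates of Caki2 cells with an empty doxycycline-inducible lentiviral vector (Caki2+Vector) and on 3 replicates of Caki2 cells in which PBRM1 was re-expressed from that vector (Caki2+PBRM1). Both groups were infected, selected with antibiotic as stable lines and given doxycycline at 2 µg/mL, so each group is 1 engineered line and PBRM1 status cannot be told apart from other differences between the lines. Values are normalized counts: reads on a gene divided by a size factor of the sample, with no division by gene length.

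Cholesterol and fatty acids are both built from cytosolic acetyl-CoA. The mevalonate enzymes make isoprenoid units that are joined to squalene and then closed and trimmed to cholesterol, while acetyl-CoA carboxylase and fatty acid synthase make palmitate, which elongases and desaturases modify. SREBP transcription factors drive both branches; SCAP escorts them out of the endoplasmic reticulum, and INSIG proteins hold SCAP back when sterols are plentiful. Clear cell renal tumours are known for cytoplasm filled with lipid and cholesteryl esters.

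Of 33 members with a promoter window, SREBF2 alone held an exact match to the sterol element searched for. Transcripts of HMGCS1, DHCR7 and ELOVL6 were lower in Caki2+PBRM1, and those of SCD5 and INSIG2 were higher. Promoter sequences are shown for these 6 members, of which SREBF2 did not pass the test of expression described below. Each is the 150 bases before the RefSeq start site on GRCh38.p14, printed 5′ to 3′ along the gene, at chr5:43313413-43313562 (minus strand) for HMGCS1, chr11:71448394-71448543 (minus) for DHCR7, chr4:110198616-110198765 (minus) for ELOVL6, chr4:82798797-82798946 (minus) for SCD5, chr2:118088321-118088470 (plus) for INSIG2 and chr22:41832955-41833104 (plus) for SREBF2. Capitals mark matches, on either strand, to 4 motifs: the sterol regulatory element TCACNCCAC, to which SREBPs bind, the NF-Y box CCAAT, the GC box GGGCGG and the E-box CACGTG.
HMGCS1: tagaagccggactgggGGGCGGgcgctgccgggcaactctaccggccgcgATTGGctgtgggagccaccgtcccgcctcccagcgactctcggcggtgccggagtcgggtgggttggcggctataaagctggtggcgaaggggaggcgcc
DHCR7: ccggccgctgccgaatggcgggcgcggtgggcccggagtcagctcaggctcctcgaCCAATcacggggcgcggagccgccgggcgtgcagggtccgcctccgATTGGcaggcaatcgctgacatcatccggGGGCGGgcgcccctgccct
ELOVL6: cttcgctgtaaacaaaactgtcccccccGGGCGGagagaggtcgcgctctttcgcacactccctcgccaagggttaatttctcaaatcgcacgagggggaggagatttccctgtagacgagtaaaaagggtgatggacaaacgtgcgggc
SCD5: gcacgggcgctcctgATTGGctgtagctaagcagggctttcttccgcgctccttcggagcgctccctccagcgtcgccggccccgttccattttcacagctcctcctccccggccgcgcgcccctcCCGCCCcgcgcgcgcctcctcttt
INSIG2: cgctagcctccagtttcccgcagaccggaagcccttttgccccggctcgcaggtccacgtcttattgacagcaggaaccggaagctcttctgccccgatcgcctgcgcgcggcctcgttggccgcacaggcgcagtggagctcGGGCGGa
SREBF2: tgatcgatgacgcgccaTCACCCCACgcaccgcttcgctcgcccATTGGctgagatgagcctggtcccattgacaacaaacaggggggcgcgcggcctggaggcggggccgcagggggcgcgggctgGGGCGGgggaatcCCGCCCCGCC

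RefSeq promoter windows (250 bases before to 50 after the start) were at hand for 33 of the 37 members. The sterol regulatory element stood in 1 of these 33, SREBF2, with its first base at -133, against 1.15% of 27305 promoters. The NF-Y box stood in 21 of the 33 against 35.7% of all promoters, and by branch in 11 of 14 mevalonate and sterol genes, 7 of 13 fatty acid genes and 3 of 6 regulators. The GC box stood in 29 of the 33 against 44.6%, and the E-box in 5 of the 33 against 7.43%. The 27305 promoters were not limited to genes that passed the filter on low values, as all 33 members did, so these are unlike sets. Of the 6 promoters shown, those of HMGCS1, DHCR7, SCD5 and SREBF2 held both NF-Y and GC boxes, and those of ELOVL6 and INSIG2 a GC box without an NF-Y box. A match is a run of letters and not a measured binding site, and 1 pair of different motifs overlapped. Only exact matches within this window were counted, so a motif that was not found does not show that a binding site is absent.

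Between 7312955 and 10835355 reads were assigned to genes in each library. PBRM1 itself was at 195, 182.3 and 182.2 normalized counts in Caki2+Vector A, B and C and at 2431.7, 2520.7 and 2682.4 in Caki2+PBRM1 A, B and C (log2 fold change 3.76, SE 0.056, limma adjusted p = 3.33e-29). Of the renal epithelial markers, PAX8 (1887.7 to 2190), KRT8 and KRT18 were high in every library and CDH16 and LHX1 moderate, PAX2 and EPCAM were low, and CA9, a marker of clear cell carcinoma, stood between 0 and 2.8 in the controls and between 6.7 and 15.2 with PBRM1. CD3E and CDH5 were at 0 in all 6 libraries, PTPRC, CD14, PECAM1 and VWF at no more than 5.7, and the smooth muscle genes DES and MYH11 between 12.3 and 36.4. Caki2+Vector A stood apart: its chi-square per degree of freedom against replicates B and C was 3.09 and 2.84, where the other pairs within a group gave 1.19 to 1.34. Values without it are therefore given below for each gene of the lists whose call they change.

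Upon PBRM1 re-expression 9 of the 37 members were downregulated and 4 were upregulated (limma on log2(normalized count + 1), adjusted p under 0.05, Benjamini-Hochberg over 13303 genes), and 24 did not pass. Of all genes tested, 13.0% were downregulated and 16.2% upregulated, or 1734 and 2152 genes. Of the 17 genes of the cholesterol branch, 5 were downregulated, none was upregulated and 12 did not pass, and the median log2 fold change was -0.15 with 14 genes below 0 and 3 above. The fatty acid branch was mixed, with 4 of 14 downregulated, 3 upregulated and a median of -0.05. Of the 6 regulators, INSIG2 alone passed the test and rose. The median over all genes tested was -0.004 and 50.6% of them lay below 0.

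**Figure D1:**
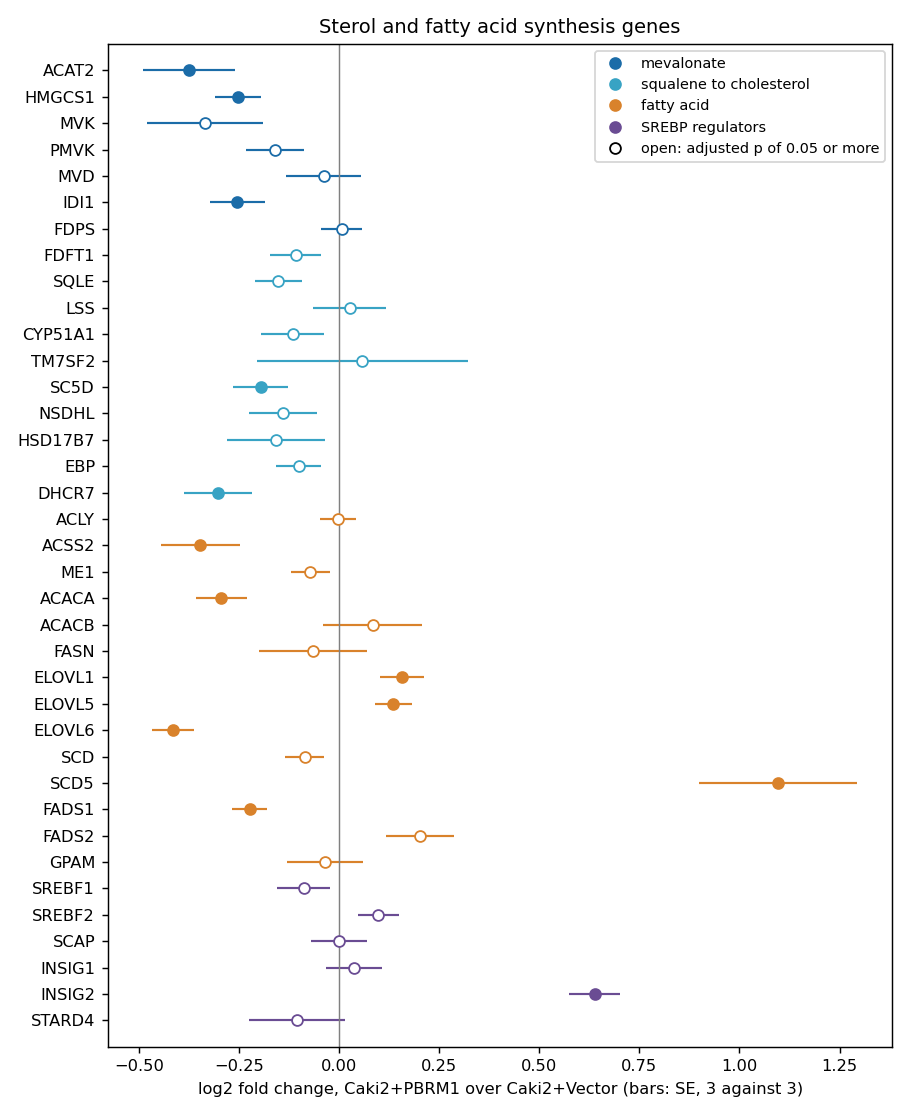
Log2 fold change (Caki2+PBRM1 over Caki2+Vector, x axis) of the 37 members (y axis, ordered by pathway step and coloured by branch), with bars for the SE and filled points for an adjusted p under 0.05. SCD5 (1.10) and INSIG2 (0.64) lie far to the right, and no filled point of the mevalonate or cholesterol genes lies above 0.

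The groups' values did not overlap for 14 members that were lower in Caki2+PBRM1 and for 6 that were higher, against 19.6% and 22.1% of all genes tested. Of the 14, 9 were in the cholesterol branch, 4 were fatty acid genes and 1 was a regulator. With 3 against 3 samples, an exact permutation test of a single gene cannot go below p = 0.1, so calls rest on the limma fit across all genes. Without Caki2+Vector A, again 9 members were downregulated and 4 upregulated, against 14.4% and 16.9% of all genes; ACAT2 and SC5D no longer passed, and FASN and EBP did.

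The mevalonate genes opened the cholesterol branch with 3 of 7 downregulated. HMGCS1, the cytosolic synthase that forms HMG-CoA, was at 978.9, 959.9 and 860.6 normalized counts in Caki2+Vector A, B and C and at 794.0, 825.7 and 730.2 in Caki2+PBRM1. Every Caki2+PBRM1 library lay below every Caki2+Vector library, and the mean fell by 16.1%, from 933.1 ± 63.5 to 783.3 ± 48.7 (SD, n = 3), with a log2 fold change of -0.25, an SE of 0.057 and a limma adjusted p of 0.00125. IDI1, the isomerase of the isoprenoid unit, was at 657.0, 584.8 and 538.2 in Caki2+Vector and at 529.7, 478.2 and 480.9 in Caki2+PBRM1. Its groups also did not overlap, although Caki2+Vector C and Caki2+PBRM1 A nearly met (log2 fold change -0.25, SE 0.068, limma adjusted p = 0.00546).

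ACAT2, the cytosolic thiolase of the first step, was at 171.3, 133.2 and 143.8 normalized counts in Caki2+Vector and at 108.3, 107.5 and 128.4 in Caki2+PBRM1. Caki2+Vector A was the highest of these by a wide margin. The log2 fold change was -0.375 with an SE of 0.11 (limma adjusted p = 0.0133), but without Caki2+Vector A it was -0.27 with a limma adjusted p of 0.0757, and the call was also lost without Caki2+PBRM1 A (0.0672) or B (0.0677). Of its exon bases, 17.2% are shared with TCP1 on the opposite strand, which had up to 2345.9 normalized counts, and the strand setting of the counting was not given in the sources used here.

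The other 4 mevalonate genes did not pass. The mevalonate kinase MVK was at 71.0, 80.3 and 65.9 in Caki2+Vector and 56.3, 59.6 and 55.4 in Caki2+PBRM1, without overlap (log2 fold change -0.33, SE 0.14, limma adjusted p = 0.0845). The phosphomevalonate kinase PMVK was at 327.2 to 359.0 and 297.9 to 321.8, also without overlap (-0.16, limma adjusted p = 0.0971). The next enzyme, the decarboxylase MVD, had overlapping values of 178.9 to 206.0 and 175.1 to 204.8. FDPS, which joins the units to farnesyl diphosphate, was level at 825.8 to 845.6 and 816.6 to 855.9, and the 95% interval of its log2 fold change ran from -0.097 to 0.11. The log2 fold changes of the mevalonate genes thus ran from -0.375 for ACAT2 to 0.006 for FDPS. Whether the steps differed from each other was not tested, and the 95% intervals of MVK (-0.631 to -0.037), PMVK (-0.309 to -0.012) and MVD (-0.228 to 0.15) overlapped.

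**Figure D2:**
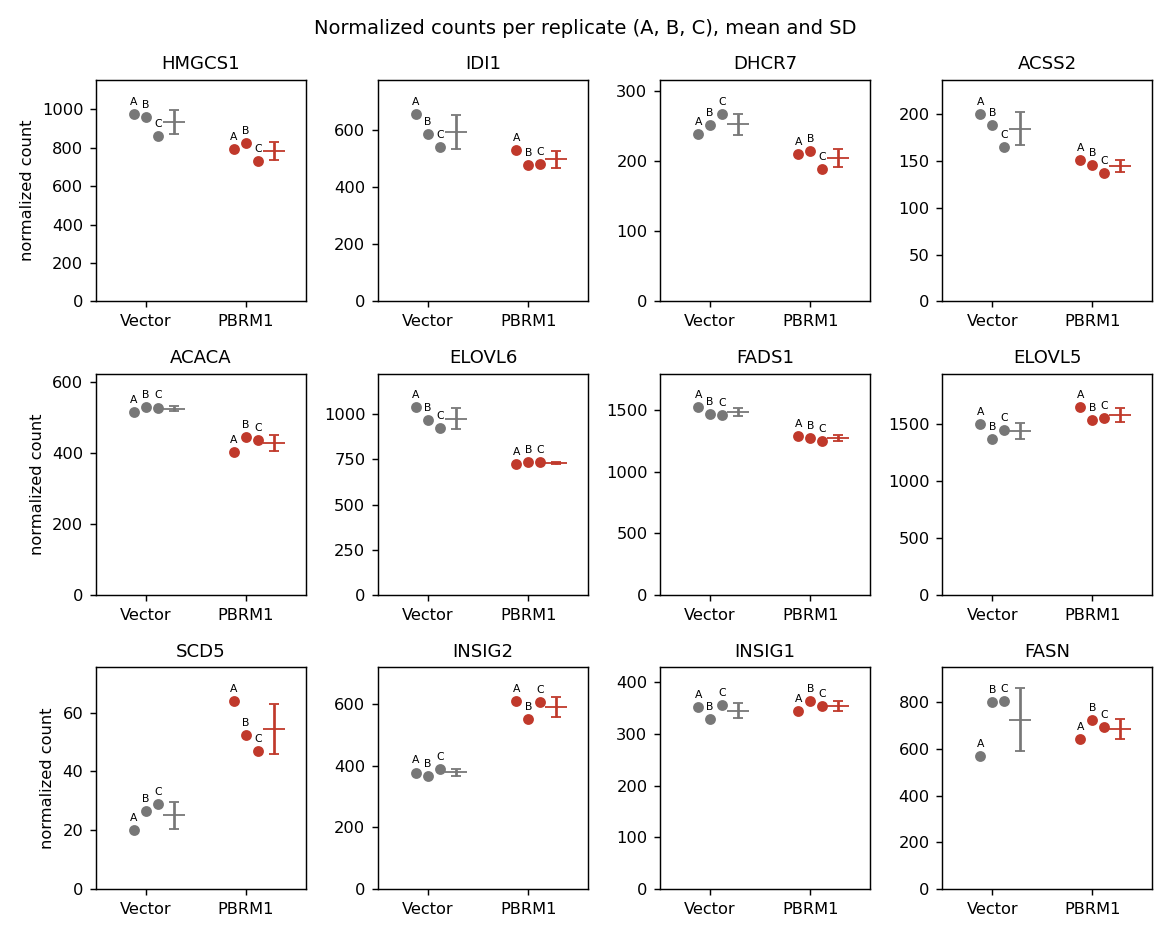
Normalized counts (y axis, from 0) of 12 members in each replicate (points A, B and C) of Caki2+Vector (grey) and Caki2+PBRM1 (red), with the mean and SD beside them. ELOVL6 falls to 724.6 to 734.4 in all 3 Caki2+PBRM1 libraries, INSIG2 rises to 553.7 or more while INSIG1 overlaps, and Caki2+Vector A lies apart from B and C for FASN.

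From squalene to cholesterol, 2 of 10 genes were downregulated, DHCR7 and SC5D, which both act in the last part of the pathway. DHCR7, the reductase that can make cholesterol itself, was at 237.6, 250.4 and 267.3 normalized counts in Caki2+Vector and at 210.1, 213.3 and 188.8 in Caki2+PBRM1. The groups did not overlap, the log2 fold change was -0.30 (SE 0.085, limma adjusted p = 0.0077), and of the alternatives run at this threshold the call was lost in 1, without Caki2+PBRM1 C (-0.25, limma adjusted p = 0.0669). SC5D, a sterol desaturase, was at 583.2, 496.0 and 492.6 in Caki2+Vector and at 477.7, 455.1 and 435.6 in Caki2+PBRM1. Caki2+Vector A was again the highest, and the log2 fold change of -0.20 (SE 0.068, limma adjusted p = 0.0303) was -0.12 without that library (limma adjusted p = 0.159), while the adjusted p was 0.0872 without Caki2+PBRM1 B and 0.148 without Caki2+PBRM1 C.

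Of the 8 sterol genes that did not pass, 6 had a log2 fold change below 0. SQLE, the epoxidase that commits squalene to sterols, was at 889.9, 803.1 and 837.8 normalized counts in Caki2+Vector and 784.2, 808.0 and 688.2 in Caki2+PBRM1. These overlapped through Caki2+PBRM1 B, and the log2 fold change of -0.15 stood at the threshold (limma adjusted p = 0.0539; 0.0397 without Caki2+Vector B and 0.0367 without Caki2+PBRM1 B). EBP, the sterol isomerase, was at 642.8, 696.3 and 685.6 against 628.2, 620.4 and 637.9. It did not overlap, and its log2 fold change was -0.10 (limma adjusted p = 0.182), or -0.14 without Caki2+Vector A (limma adjusted p = 0.0493).

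NSDHL, a sterol dehydrogenase, was at 214.9 to 234.3 and 197.1 to 208.9 without overlap (log2 fold change -0.14, limma adjusted p = 0.227). The squalene synthase FDFT1 (-0.11), the lanosterol demethylase CYP51A1 (-0.12) and the reductase HSD17B7 (-0.16) had overlapping groups and adjusted p of 0.21 to 0.358 by limma. The lanosterol synthase LSS was at 182.3 to 226.5 and 194.7 to 209.0 (log2 fold change 0.026). TM7SF2, a sterol reductase, was the least abundant member at 16.8 to 18.9 and 15.2 to 25.2, and the 95% interval of its log2 fold change was wide, from -0.48 to 0.60. CYP51A1, HSD17B7, FDPS, IDI1 and SCD have 1 to 8 annotated pseudogenes of their name, with which reads may be shared.

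Summed over the 17 genes of the cholesterol branch, the normalized counts were 7128, 6944 and 6748 in Caki2+Vector A, B and C and 6364, 6392 and 6023 in Caki2+PBRM1 A, B and C. Each Caki2+PBRM1 library was lower than each Caki2+Vector library, and 15, 16 and 14 of the 17 genes lay below their Caki2+Vector mean in Caki2+PBRM1 A, B and C. The corresponding sums over the 14 fatty acid genes were 11776, 11992 and 11697 against 11406, 11345 and 11224, with 8 of 14 genes below their Caki2+Vector mean in each Caki2+PBRM1 library. The sum of a branch is led by its abundant genes, so these totals describe the libraries and are not tests. Within each library, fewer transcripts per cell and a smaller share of cells with high transcript levels cannot be told apart in bulk RNA. The count of 5 downregulated cholesterol genes was 3 without Caki2+PBRM1 C, a fit in which downregulated genes over all genes tested also went from 1734 to 1207.

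**Figure D3:**
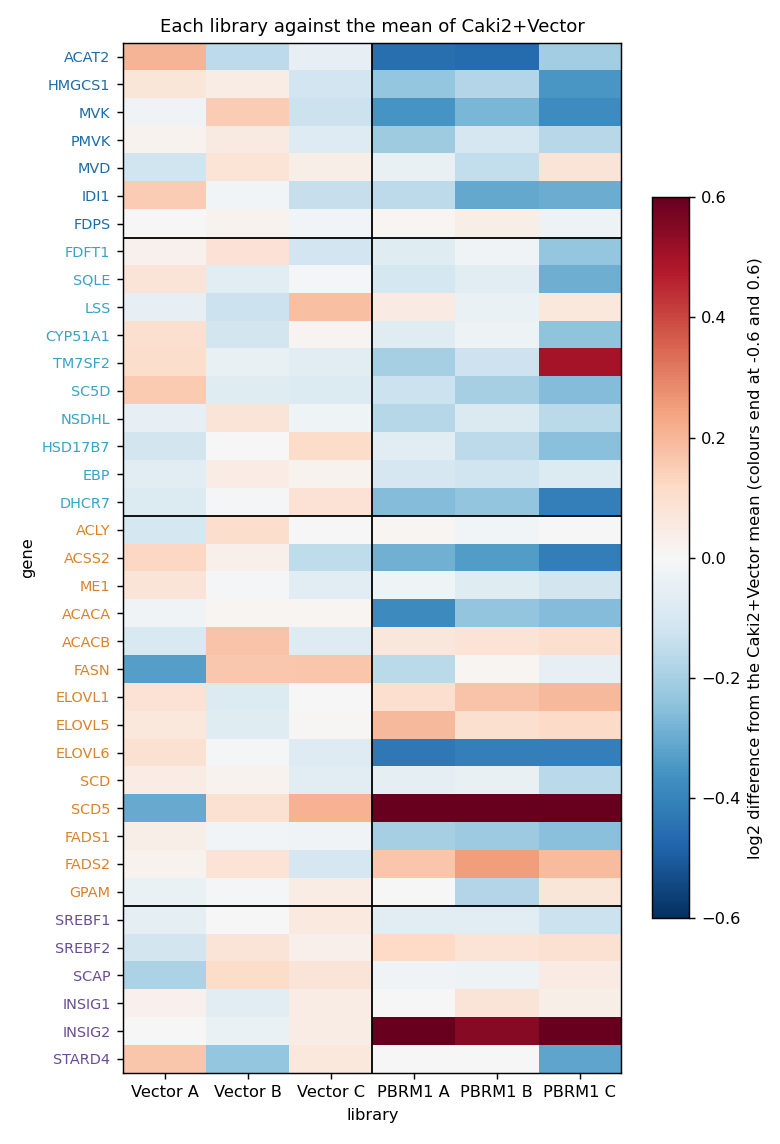
Log2 difference of each library (x axis) from the Caki2+Vector mean for the 37 members (y axis), with blue lower and red higher and lines between the branches and the groups. The cholesterol genes are mostly blue in the Caki2+PBRM1 columns, the fatty acid genes are mixed, and the row of INSIG2 and that of SCD5 reach the end of the scale.

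The supply of acetyl-CoA and its entry into fatty acids gave 2 downregulated genes. ACSS2, which makes acetyl-CoA from acetate, was at 200.7, 188.0 and 165.4 normalized counts in Caki2+Vector and at 150.6, 145.8 and 137.6 in Caki2+PBRM1. The groups did not overlap and the mean fell by 21.7% (log2 fold change -0.35, SE 0.099, limma adjusted p = 0.00805). ACLY, which makes acetyl-CoA from citrate, was at 2501.1, 2895.7 and 2701.5 against 2713.3, 2661.2 and 2691.6. The Caki2+PBRM1 values lay inside the range of Caki2+Vector, with a 95% interval of the log2 fold change from -0.094 to 0.087. ME1, the cytosolic malic enzyme that supplies NADPH, was at 1178.2 to 1301.7 and 1140.6 to 1208.8 (-0.072, limma adjusted p = 0.286).

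ACACA, the cytosolic acetyl-CoA carboxylase that sets the pace of fatty acid synthesis, was at 516.9, 529.1 and 528.6 normalized counts in Caki2+Vector and at 401.9, 445.3 and 438.1 in Caki2+PBRM1. The Caki2+Vector libraries agreed closely and the mean fell by 18.4% (log2 fold change -0.29, SE 0.063, limma adjusted p = 6.27e-04). Its paralog ACACB, whose product sits at mitochondria and restrains fatty acid import, was at 84.3, 101.1 and 85.1 against 94.2, 95.1 and 96.5 (0.084, limma adjusted p = 0.662).

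FASN, the fatty acid synthase, was at 569.9, 803.1 and 805.4 normalized counts in Caki2+Vector and at 641.2, 723.5 and 694.1 in Caki2+PBRM1. All 3 Caki2+PBRM1 values lay between Caki2+Vector A and the other 2 controls, and FASN showed the greatest shortfall of any member in that library, 0.33 on the log2 scale below the Caki2+Vector mean. The log2 fold change was -0.065 with an SE of 0.14 and a limma adjusted p of 0.772. Without Caki2+Vector A it was -0.23 with a limma adjusted p of 4.61e-04. It was 0.017 without Caki2+Vector B and 0.019 without Caki2+Vector C, so the sign itself depended on which control was used.

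The elongases moved in opposite directions. ELOVL6, which extends palmitate to stearate, was at 1037.6, 965.6 and 924.1 normalized counts in Caki2+Vector and at 724.6, 733.3 and 734.4 in Caki2+PBRM1. The Caki2+PBRM1 libraries were nearly equal, all below the lowest Caki2+Vector library, and the mean fell by 25.1% from 975.7 ± 57.4 to 730.8 ± 5.3 (SD, n = 3), the largest decrease on the log2 scale among the 37 members (-0.415, SE 0.053, limma adjusted p = 4.01e-07).

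ELOVL5, an elongase of polyunsaturated fatty acids, was at 1505.2, 1370.9 and 1446.7 normalized counts against 1648.6, 1538.6 and 1557.7 (0.135, SE 0.046, limma adjusted p = 0.0278). ELOVL1, an elongase of very long saturated chains, was at 776.3, 690.6 and 731.1 against 785.3, 824.8 and 838.5 (0.157, SE 0.055, limma adjusted p = 0.0322). Both rose without overlap, but ELOVL5 did not pass without Caki2+Vector B (0.10, limma adjusted p = 0.14), Caki2+PBRM1 A (0.10, 0.179) or Caki2+PBRM1 C (0.145, 0.0643). ELOVL1 did not pass without Caki2+Vector B (0.12, limma adjusted p = 0.153), Caki2+Vector C (0.156, 0.062), Caki2+PBRM1 B (0.149, 0.113) or Caki2+PBRM1 C (0.137, 0.145). Without Caki2+Vector B or Caki2+PBRM1 C, 1 fatty acid gene was upregulated in place of 3, where upregulated genes over all genes tested went from 2152 to 1984 and 1649.

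Among the desaturases, SCD5 rose and SCD did not pass. SCD, the main stearoyl-CoA desaturase, was at 1363.2, 1342.5 and 1266.9 normalized counts in Caki2+Vector and at 1276.0, 1283.5 and 1182.6 in Caki2+PBRM1, with overlap (-0.086, limma adjusted p = 0.184). SCD5, a second gene for that activity, was at 19.9, 26.5 and 28.8 against 63.9, 52.4 and 47.0. Every Caki2+PBRM1 value of SCD5 exceeded every control, and its mean rose from 25.0 ± 4.6 to 54.4 ± 8.6 (SD, n = 3), the largest change among the members (log2 fold change 1.10, SE 0.20, limma adjusted p = 7.47e-05).

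FADS1, which makes the last double bond of arachidonate, was at 1519.4, 1465.3 and 1461.0 normalized counts against 1291.1, 1272.8 and 1245.5. It was downregulated without overlap (-0.22, SE 0.044, limma adjusted p = 2.69e-04). Its neighbour FADS2, which acts at an earlier step of that route, was at 204.5, 213.5 and 188.2 against 226.4, 240.0 and 230.0. FADS2 was higher without overlap but did not pass (0.20, SE 0.085, limma adjusted p = 0.0764), and with FADS1 on the opposite strand it shares 490 bases of annotated exon. GPAM, which starts glycerolipid assembly, overlapped (175.1 to 185.8 and 159.1 to 189.7).

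The regulators differed in 1 gene. INSIG2 was at 378.7, 368.5 and 390.7 normalized counts in Caki2+Vector and at 610.9, 553.7 and 609.3 in Caki2+PBRM1. The lowest Caki2+PBRM1 library stood far above the highest control, and the mean rose by 55.9%, from 379.3 ± 11.1 to 591.3 ± 32.6 (SD, n = 3; log2 fold change 0.64, SE 0.064, limma adjusted p = 4.08e-09). INSIG1, its paralog, was at 351.2, 328.8 and 356.0 against 344.4, 363.5 and 354.2. These overlapped, and the 95% interval of the log2 fold change ran from -0.11 to 0.18.

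The SREBP genes themselves did not pass. SREBF1, whose product mainly drives fatty acid genes, was at 422.2, 441.2 and 457.8 normalized counts against 419.2, 420.4 and 402.0, lower without overlap (-0.089, limma adjusted p = 0.325). SREBF2, whose product mainly drives sterol genes, was at 873.8, 994.8 and 961.2 against 1024.7, 996.4 and 1003.0, higher without overlap (0.098, limma adjusted p = 0.166). SCAP (444.9 to 548.0 and 496.0 to 525.4) and the sterol transfer protein STARD4 (113.4 to 149.6 and 106.6 to 133.3) overlapped. Transcript levels do not measure the cleavage by which SREBPs are activated.

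Ratios within a library, which do not depend on its size factor, were taken for 7 pairs of related genes chosen after their values were seen. INSIG2 to INSIG1 was 1.08, 1.12 and 1.10 in Caki2+Vector and 1.77, 1.52 and 1.72 in Caki2+PBRM1. ELOVL6 to ELOVL5 was 0.689, 0.704 and 0.639 against 0.44, 0.477 and 0.471, and ACACA to ACACB was 6.13, 5.23 and 6.21 against 4.26, 4.68 and 4.54. FADS1 to FADS2 was 7.43, 6.86 and 7.76 against 5.70, 5.30 and 5.42. None of these 4 ratios, nor SCD5 to SCD, ELOVL6 to ELOVL1 and SREBF2 to SREBF1, overlapped between groups. Each reached the exact permutation p of 0.1 (two-sided, 3 against 3), the smallest that this design allows, and 0.1 adjusted over 7 pairs. As the pairs were picked from values already seen, these p-values only restate the lack of overlap.

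On a scale of normalized counts per kb of exon, which allows a rough comparison between genes, the members spanned a 99.7-fold range in Caki2+Vector. The lengths are unions of all GENCODE exons, such as 1002 bases for PMVK and 9018 for MVK, whereas reads were counted on UCSC genes. A gene's place on this scale therefore depends in part on the annotation. ACLY was the highest (518.3 ± 37.9, SD, n = 3), followed by EBP (381.7), ELOVL5 (377.9), ME1 (369.5) and PMVK (344.8). EBP, ELOVL5 and ME1 differed by less than the spread of their replicates. MVK (8.0), ACACB (6.2), SCD5 (5.9) and TM7SF2 (5.2) were the lowest. INSIG2 and INSIG1 stood at the same level in Caki2+Vector (96.0 and 94.6 per kb), but at 149.7 and 97.0 in Caki2+PBRM1. SCD5, although it rose to 12.9 per kb, remained far below SCD at 237.8.

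**Figure D4:**
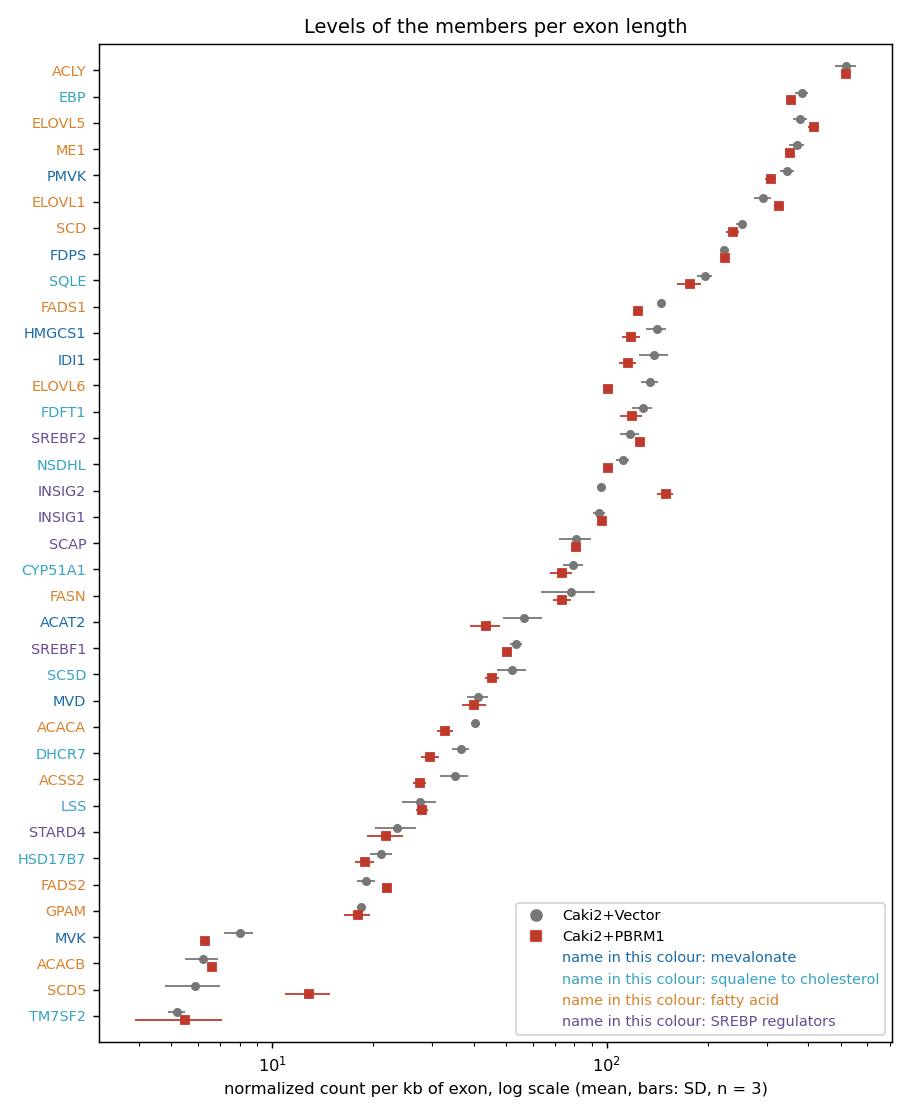
Normalized count per kb of exon (x axis, log scale; mean with SD, n = 3) of the 37 members (y axis, ordered by the level in Caki2+Vector) in Caki2+Vector (grey circles) and Caki2+PBRM1 (red squares). The levels run from TM7SF2 at 5.2 to ACLY at 518.3 in Caki2+Vector, and INSIG2 and SCD5 show the widest gaps between groups.

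On GRCh37, the 5 downregulated cholesterol genes were ACAT2 at chr6:160183077-160200144, HMGCS1 at chr5:43287572-43313614, IDI1 at chr10:1085092-1095059, SC5D at chr11:121163390-121184119 and DHCR7 at chr11:71139239-71163914. The 4 downregulated fatty acid genes were ACSS2 at chr20:33459949-33515765, ACACA at chr17:35441927-35766927, ELOVL6 at chr4:110967002-111120355 and FADS1 at chr11:61567099-61596790. The 4 upregulated members were ELOVL1 at chr1:43829069-43833745, ELOVL5 at chr6:53132196-53213977, SCD5 at chr4:83550692-83719949 and INSIG2 at chr2:118846028-118868573. These spans cover the whole annotated gene, exons and introns, and the counts are of reads on exons.

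The other genes of these pathways, 66 of 73 listed passing the filter, showed 12 upregulated (18.2%) and 14 downregulated (21.2%), against 16.2% and 13.0% of all genes tested, with a median log2 fold change of -0.032. Of 17 genes listed under other sterol synthesis 2 rose and 3 fell, the mitochondrial ACAT1 among the 3. Of 11 sterol uptake and efflux genes 2 rose and 3 fell, and of 26 other fatty acid genes 5 rose and 5 fell. Among 12 NADPH and AMPK genes, 3 rose and 3 fell. Without Caki2+PBRM1 C the counts were 8 upregulated and 8 downregulated, and without Caki2+PBRM1 B they were 8 and 11, while calls over all genes tested went from 2152 and 1734 to 1649 and 1207 and to 1662 and 1276. Without Caki2+Vector A they were 10 and 16. In that fit 4 genes, named for this after their values were seen, changed call by limma: the adjusted p went from 0.046 to 0.216 for TECR and from 0.0451 to 0.0501 for AGPAT3, which had been higher, and from 0.757 to 0.0118 for MCAT and from 0.291 to 0.009 for FADS3, which were lower. The 10 genes with the largest changes were 5 that fell and 5 that rose.

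The largest changes up and down were in NADPH enzymes. ME3, a mitochondrial malic enzyme, fell from 57.7, 80.3 and 61.1 normalized counts to 22.7, 33.8 and 21.8 (log2 fold change -1.33, limma adjusted p = 4.24e-06). PGD, which makes NADPH in the pentose phosphate pathway, rose from 2754.9, 2863.6 and 2868.1 to 4371.7, 4384.6 and 4497.8 (0.64, limma adjusted p = 2.68e-14). Neither gene's groups overlapped. ME2, the other mitochondrial malic enzyme, fell (-0.32), while the AMPK subunit PRKAA2, part of a kinase that inhibits acetyl-CoA carboxylase, rose (0.38).

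ACAT1, the mitochondrial counterpart of ACAT2, stood in the sterol synthesis list, although cholesterol is built from cytosolic acetyl-CoA. It fell from 698.7, 715.2 and 659.2 normalized counts to 473.3, 475.5 and 465.0 (log2 fold change -0.55, limma adjusted p = 1.23e-08). In sterol handling, NR1H2, the oxysterol receptor LXR beta, rose from 666.5, 750.1 and 797.0 to 909.9, 891.5 and 964.3 (0.32, limma adjusted p = 1.09e-04). Both were without overlap, and the lipoprotein receptor SCARB1 also rose (0.28, limma adjusted p = 5.9e-05). In fatty acid handling, ELOVL2, an elongase of polyunsaturated chains, fell from 434.5, 411.0 and 389.5 to 303.3, 314.6 and 275.3 (-0.47, limma adjusted p = 1.13e-05). LPIN1, a phosphatidate phosphatase, fell (-0.41, limma adjusted p = 4.9e-07) and the acyl-CoA ligase ACSL1 rose (0.28, limma adjusted p = 4.11e-04).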

How the data were processed

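Gene expression in 3 Caki2+Vector and 3 Caki2+PBRM1 replicates, grouped by the sample labels, was compared. The authors trimmed and filtered the reads, used STAR for alignment to hg19, and counted reads per UCSC gene with htseq-count; versions and strand setting are not given in the sources used here. The signal values the authors deposited are normalized counts, with replicates kept apart. All values (100% per sample) were whole reads, within 0.02, divided by a size factor of 0.834 to 1.191.

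Genes with at least 10 normalized counts in at least 3 samples (13303) were tested on log2(normalized count + 1) with limma 3.58.1 (trend, robust) in R 4.3.3, two-sided, with Benjamini-Hochberg adjustment and a threshold of 0.05. Fold changes are on this scale, which understates those of low genes. The median SE was 0.083. P-values measure only the spread between these samples, all from 1 line per group.

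The members and gene lists were chosen with earlier results of these data known. All 37 members are named, and of the other lists the 10 largest changes past the threshold. Alternatives were edgeR 4.0.16, DESeq2 1.42.0 and voom on recovered reads, the authors' size factors, quantile normalization, other filters, pseudocounts (0.5 and 4) and threshold (0.01), the replicate letter as a block, and leaving out each replicate. Of 13303 genes, edgeR called 2194 higher and 1836 lower. Scripts were tested on simulated data. Exon lengths, as the union of all annotated exons, and positions come from GENCODE on GRCh37, promoters from RefSeq (GRCh38.p14). Other computations used Python 3.11.15, pandas 2.3.3, scipy 1.17.1 and matplotlib 3.10.9.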

Additional observations from a re-analysis of the deposited data

How the results depend on the processing

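HMGCS1, IDI1, ACSS2, ACACA, ELOVL6, SCD5, FADS1 and INSIG2 passed the threshold of 0.05 in each of 16 alternatives; calls lost by leaving out a library are given with each gene. Of 17 cholesterol genes, 3 were downregulated with DESeq2, 3 at an adjusted p under 0.01, and 3 to 6 when a replicate was left out, against 5. Of the fatty acid genes, 1 was upregulated with DESeq2, 1 at 0.01, and 1 to 3 with a replicate left out, against 3. Of the other pathway genes, 9 were downregulated at 0.01 and 8 to 16 with a replicate left out, against 14. Over all genes tested, 1496 were upregulated and 1025 downregulated at 0.01, against 2152 and 1734. With a replicate left out, these totals ran from 1649 to 2252 and from 1207 to 1918. Quantile normalization gave 1938 genes higher and 2083 lower in place of 2152 and 1734, with 7 cholesterol genes downregulated, MVK among those that passed, and ELOVL5 no longer passing. DESeq2 called 1496 genes higher and 1057 lower, and ACAT2, SC5D, ELOVL1 and ELOVL5 did not pass; the cause was not tested.

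The sign changed only for members that did not pass: FDPS was -0.011 and TM7SF2 -0.027 after quantile normalization, and SCAP 0.004 with voom. With a replicate left out, log2 fold changes ran from -0.098 to 0.016 for MVD, -0.009 to 0.025 for FDPS, -0.040 to 0.116 for LSS, -0.162 to 0.186 for TM7SF2, -0.057 to 0.049 for ACLY, -0.230 to 0.019 for FASN, -0.090 to 0.036 for GPAM, -0.095 to 0.055 for SCAP and -0.219 to 0.002 for STARD4.

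The replicate letters did not pair the samples: the deviations of same-lettered samples correlated at 0.006, -0.008 and 0.014. With the letter as a replicate block, 6 cholesterol genes were downregulated, SQLE having passed (limma adjusted p = 0.0353), as were 4 fatty acid genes. In that fit, 3 fatty acid genes and 1 regulator were upregulated. Over all genes tested, it called 2249 higher and 1858 lower, against 2152 and 1734 without the block. At this depth the smallest log2 fold change called among the members was 0.135, for ELOVL5.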
